A study of Caenorhabditis elegans with 9 samples.

Results

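Neuropeptide receptor genes were followed in RNA sequencing libraries of VA motor neurons of the nematode Caenorhabditis elegans. They were chosen by name: gene symbols of the families npr, frpr, dmsr, ckr, ntr, nmur, sprr and tkr, and egl-6, pdfr-1, gnrr-1, aexr-1 and trhr-1. By that rule 47 of the 2349 genes that the authors listed as enriched in wild type VA neurons over whole worms were receptor genes. Among the 214 genes listed as higher in unc-4 mutant than in wild type VA neurons there were 6, and npr-12 was the 1 gene in both tables.

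The libraries fall into 3 groups of 3, all from synchronized larvae of the second stage (L2). Wild type VA neurons (replicates 1, 2 and 3) and unc-4 VA neurons (replicates 1, 2 and 3) came from larvae labelled with the same reporter strain, pUnc-4::mCherry; pUnc-4C::GFP, and the labels name no unc-4 allele. Larvae were dissociated and cells with red but no green signal were sorted, so the unc-4 promoter defines the cells, and AVF neurons pass the same gate. The reference group was whole worms of the N2 strain (replicates 2, 3 and 4), frozen over liquid nitrogen without sorting, so sorted and reference groups differ in strain and handling too. Nothing says that replicates were separate cultures, so p-values measure the spread between these libraries, which may be technical. Values are TPM, the usual unit of transcript abundance in RNA sequencing, which are scaled by transcript length and by library total, so that levels of different genes can be set side by side. TPM keeps no sequencing depth, so depth is unknown and no counting interval is given.

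Neuropeptides are cut from precursor proteins, released from dense core vesicles and act over some distance on G protein-coupled receptors, which signal through heterotrimeric G proteins to change excitability and transmitter release. In C. elegans many receptors named frpr or dmsr resemble insect receptors for FMRFamide and myosuppressin, and many named npr resemble neuropeptide Y or tachykinin receptors. VA neurons use acetylcholine, lie in the ventral nerve cord and drive body muscle in backward locomotion. The homeodomain protein UNC-4 acts in VA neurons as a transcriptional repressor, and without it they receive synaptic input of the kind normal for their sister VB neurons.

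All 8 markers of cholinergic or VA-class motor neurons looked for (unc-4, unc-3, unc-17, cha-1, cho-1, bnc-1, acr-2 and del-1) were in the authors' list of genes enriched in wild type VA neurons. Their summed level was 4902, 3430 and 3666 TPM in VA replicates 1, 2 and 3 and 66.6 to 78.7 TPM in the whole-worm libraries. The 1 gene looked for as an AVF marker, snf-11, was listed as well, and whether it came from AVF neurons was not tested. Also listed were 2 of 2 markers of AVK neurons (flp-1 and nlp-49) and 2 of 5 touch neuron markers (mec-7 and mec-12). The AVK markers summed to 95201, 31423 and 148322 TPM in the same VA libraries and to 461 to 546 TPM in whole worms. None of 5 ciliated neuron, 5 glutamate or monoamine neuron, 3 GABA motor neuron, 3 VB or DB motor neuron, 4 muscle, 3 pharynx, 3 intestine, 3 hypodermis, 2 germline, 2 coelomocyte or 2 glia markers was listed in that comparison. RNA of such cells that is no more abundant than in whole worms would not appear in this table. The heat shock genes listed as higher in VA neurons took 5.22%, 32.6% and 1.90% of TPM in VA replicates 1, 2 and 3, against 0.110% to 0.310% in whole worms. Heat shock genes that were not listed are missing from the figures of both groups. Since TPM adds to a fixed total, the listed ones lower the other genes of VA replicate 2.

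The first comparison asks which receptor transcripts are enriched in VA neurons over whole larvae. Under current gene names the rule covers 97 annotated genes, of which 51 (52.6%) were listed, 4 of them under older sequence names, beside 11.6% of all annotated protein-coding genes. Of 43 annotated npr genes, 20 were listed by symbol and 4 more under sequence names; these 4 are outside the 47 genes described here. There were 14 frpr genes of 20 annotated, 6 dmsr genes of 16 and 2 tkr genes of 3, and the remaining 5 were gnrr-1, pdfr-1, ckr-2, sprr-1 and ntr-2. Differences between families were not tested. In bulk libraries of sorted cells, a difference in the share of cells that hold a transcript cannot be told apart from a difference in RNA per cell. Any AVF or other cells among the sorted cells would add to this, and which cells held each receptor was not tested.

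Across the 47 genes the mean level in VA neurons ran from 3.10 to 124 TPM, and in whole worms from 0.181 to 10.6 TPM. A mean of at least 50 TPM was reached by 9 genes, 27 lay from 10 to 50 TPM and 11 below 10 TPM. Receptors were thus of low to middle abundance: 387 listed genes had a higher mean than the most abundant receptor, and the median VA level was 15.97 TPM for receptors against 32.7 TPM for all listed genes. In whole worms the medians were 2.06 and 6.95 TPM. The authors' deposited table gives the receptors a median fold of 9.45, between 3.58 and 118, beside a median of 6.94 for all 2349 genes.

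In 43 of the 47 genes the lowest VA library exceeded the highest whole-worm library, while 91.9% of all listed genes were separated in this way. On log2(TPM + 1), limma's test with Benjamini-Hochberg adjustment over the table passed 46 of 47 receptor genes at an adjusted p under 0.05, beside 95.1% of the listed genes tested. Both shares are near the background, and all listed genes had been selected on these same libraries, so neither count says anything particular about receptors. The median log2 difference was 2.18 for receptors and 1.83 for all listed genes tested. Summed over the 47 genes, receptor transcripts made up 1619, 746 and 1424 TPM in VA replicates 1, 2 and 3, and 148, 126 and 129 TPM in whole-worm replicates 2, 3 and 4.

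**Figure D1:**
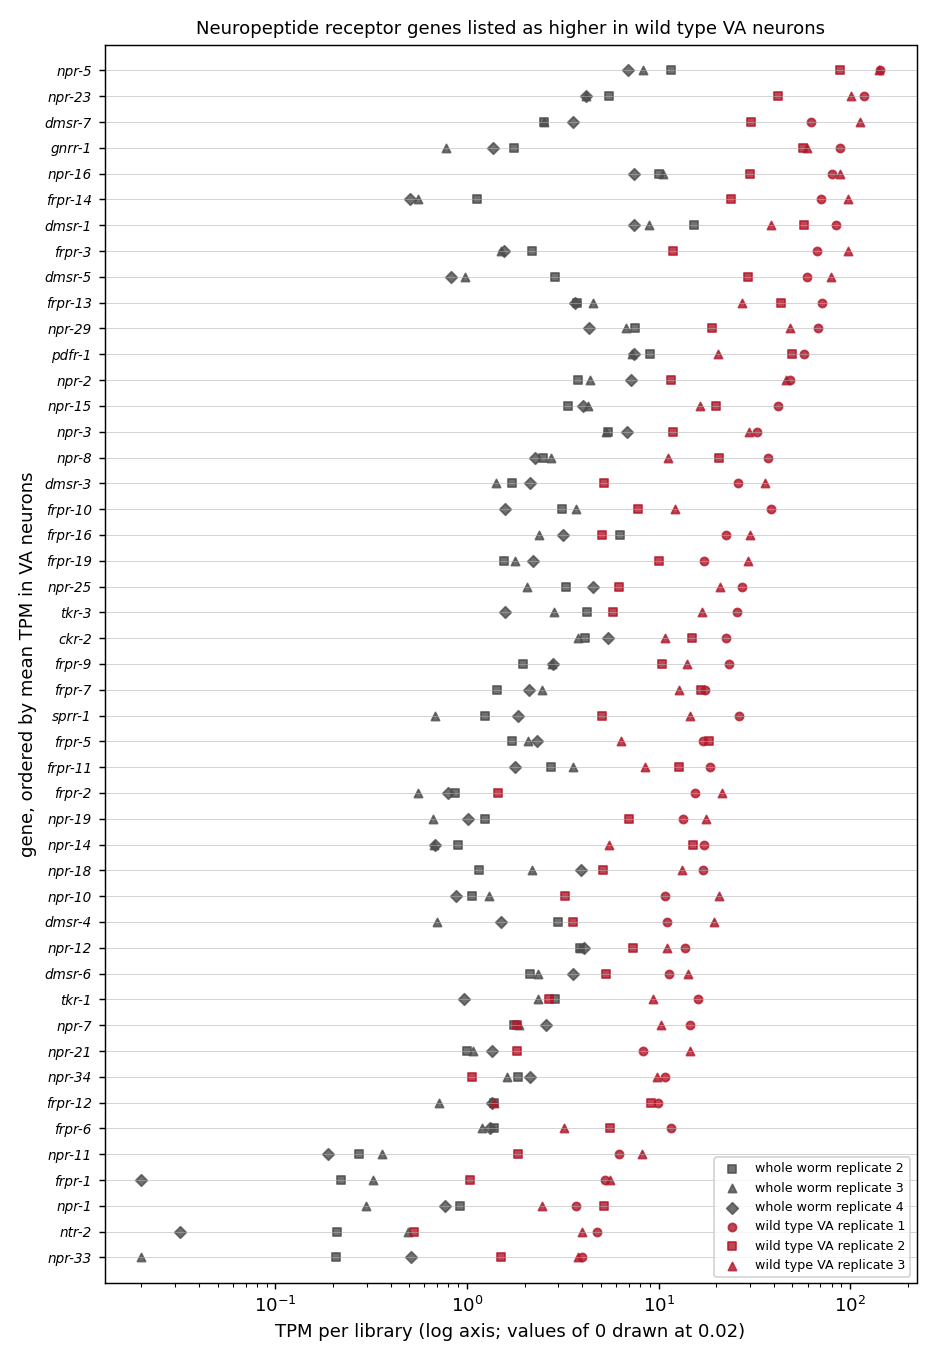
TPM of the 47 receptor genes in each of the 3 wild type VA libraries (red) and the 3 whole-worm libraries (grey), on a log axis, with 1 row a gene ordered by mean VA level. Red and grey values do not overlap in 43 rows, though in frpr-12 VA replicate 3 is level with whole-worm replicate 2. They overlap in the rows of frpr-16, tkr-1, npr-7 and npr-34. Red squares (VA replicate 2) often lie left of the other red symbols.

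The largest fold belonged to frpr-14 (WBGene00019496, chromosome II, 650955 to 654133), a gene of the FMRFamide receptor-like family. It read 70.8, 23.9 and 97.4 TPM in VA replicates 1, 2 and 3, and 1.13, 0.553 and 0.503 TPM in whole-worm replicates 2, 3 and 4. The lowest VA library was far above the highest whole-worm library, and the log2 difference was 5.04 ± 0.48 (SE, adjusted p = 3.96e-06 by limma). Next came gnrr-1 (WBGene00018798, chromosome I, 4799981 to 4804396), a relative of gonadotropin-releasing hormone and adipokinetic hormone receptors that is activated by the peptide of nlp-47. In the VA libraries gnrr-1 read 88.4, 56.6 and 59.4 TPM, and in the whole-worm libraries 1.76, 0.781 and 1.37 TPM. Its VA libraries stood close together, and the log2 difference of 4.90 ± 0.35 had the smallest adjusted p of the receptors (6.09e-07 by limma). The precursor gene nlp-47 itself was not listed in either table.

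Among the dmsr genes, which resemble myosuppressin receptors, dmsr-5 and dmsr-7 had the largest folds. The gene dmsr-5 (WBGene00012962, chromosome III, 10992044 to 10995256) read 59.2, 29.4 and 79.6 TPM in VA neurons and 2.90, 0.977 and 0.825 TPM in whole worms. For dmsr-7 (WBGene00016428, chromosome V, 5405353 to 5408386), a receptor that responds to several FMRFamide-like peptides, the VA libraries held 62.7, 30.2 and 112.6 TPM and the whole-worm libraries 2.51, 2.53 and 3.57 TPM. Neither gene overlapped between the groups, and their log2 differences were 4.45 ± 0.44 and 3.99 ± 0.44 (adjusted p = 5.4e-06 and 1.22e-05 by limma). Another member, dmsr-1 (WBGene00010191, chromosome V, 11438764 to 11441638), is the receptor through which the peptides of flp-13 promote sleep after cellular stress. It stood at 84.3, 57.6 and 38.6 TPM in VA neurons but also had the highest whole-worm level of the 47 genes, at 15.4, 8.93 and 7.41 TPM. The groups stayed apart, with a smaller log2 difference of 2.39 ± 0.39 (adjusted p = 0.000182 by limma). Of the remaining dmsr genes, dmsr-3 reached a mean of 22.4 TPM, dmsr-4 of 11.4 TPM and dmsr-6 of 10.3 TPM in VA neurons.

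Of the frpr genes beside frpr-14, frpr-3 (WBGene00016149, chromosome V, 7771261 to 7773269) was the most abundant. Its product is a receptor of the flp-20 peptides in arousal. The VA libraries read 66.9, 11.9 and 97.1 TPM and the whole-worm libraries 2.18, 1.51 and 1.57 TPM. All VA libraries were above the reference, but VA replicate 2 was far below the other two, and the log2 difference of 4.01 ± 0.62 (adjusted p = 0.000124 by limma) became 4.90 without it. The same unevenness was larger in frpr-2 (chromosome X, 12965463 to 12968974), at 15.6, 1.45 and 21.4 TPM in VA replicates 1 to 3 and 0.862, 0.555 and 0.793 TPM in whole worms. Its log2 difference of 2.48 ± 0.68 (adjusted p = 0.00539 by limma) was 3.48 without VA replicate 2 and 1.88 without VA replicate 3. An exon of frpr-2 overlaps ppk-3 on the other strand, which makes its value uncertain. A low but enriched member was frpr-1 (chromosome X, 8124083 to 8129643), with 5.25, 1.03 and 5.58 TPM in VA neurons and 0.22, 0.324 and 0 TPM in whole worms. The groups did not overlap, and its log2 difference was 1.90 ± 0.50 (adjusted p = 0.00426 by limma). In frpr-7 (chromosome X, 17567565 to 17579879), which encodes a receptor for flp-1 peptides, the VA libraries were the most alike of all 47 genes. They held 17.5, 16.7 and 12.8 TPM against 1.44, 2.46 and 2.11 TPM in whole worms, a log2 difference of 2.47 ± 0.34 (adjusted p = 6.02e-05 by limma).

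The receptor with the highest level was npr-5 (WBGene00021983, chromosome V, 276985 to 281716), a neuropeptide Y-type receptor for peptides of flp-18. It read 142, 88.8 and 142 TPM in VA replicates 1 to 3 and 11.6, 8.33 and 6.95 TPM in whole-worm replicates 2 to 4. The VA libraries were close together and well apart from whole worms, with a log2 difference of 3.65 ± 0.34 (adjusted p = 3.27e-06 by limma). Second in level was npr-23 (WBGene00021328, chromosome I, 1062293 to 1065297), with 119, 41.96 and 101 TPM in VA neurons and 5.54, 4.16 and 4.17 TPM in whole worms. Its log2 difference was 3.85 ± 0.41 (adjusted p = 8.32e-06 by limma). The gene npr-16 (chromosome X, 3518794 to 3531862) was nearly as abundant, at 80.2, 30.01 and 88.9 TPM. Its whole-worm level was also high for a receptor, at 10.01, 10.496 and 7.46 TPM, so that the log2 difference was only 2.57 ± 0.42 (adjusted p = 0.000188 by limma). An exon of npr-16 overlaps F56B6.6 on the other strand.

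Several npr genes were strongly enriched at lower levels. The gene npr-19 (chromosome X, 731094 to 735672), whose product is related to cannabinoid receptors, read 13.4, 6.9997 and 17.8 TPM in VA neurons and 1.25, 0.667 and 1.01 TPM in whole worms. For npr-14 (chromosome I, 13050445 to 13057461) the VA libraries held 17.2, 15.1 and 5.49 TPM and the whole-worm libraries 0.893, 0.672 and 0.678 TPM. The log2 differences were 2.72 ± 0.40 for npr-19 and 2.83 ± 0.44 for npr-14 (adjusted p = 0.000101 and 0.00013 by limma), with no overlap between groups in either. The low library of npr-14 was replicate 3, not replicate 2, and an exon of it overlaps nhr-85 on the other strand. The gene npr-11 (chromosome X, 1251815 to 1255647), a receptor for flp-34 and nlp-1 peptides in olfactory circuits, read 6.21, 1.85 and 8.16 TPM against 0.272, 0.361 and 0.188 TPM. It was among the lowest in level but had the seventh largest fold of the receptors, with a log2 difference of 2.17 ± 0.47 (adjusted p = 0.0014 by limma). The much studied npr-1 (chromosome X, 4767152 to 4769985), a receptor of flp-18 and flp-21 peptides that governs aggregation and oxygen responses, was low as well. It held 3.69, 5.18 and 2.46 TPM in VA neurons and 0.918, 0.296 and 0.768 TPM in whole worms, and its log2 difference was 1.503 ± 0.40 (adjusted p = 0.00468 by limma).

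Other receptors of well studied peptides had smaller folds. The gene pdfr-1 (WBGene00015735, chromosome III, 6632837 to 6652083), the receptor of the PDF peptides that prolong roaming, read 57.8, 49.8 and 20.4 TPM in VA neurons and 9.04, 7.23 and 7.48 TPM in whole worms. Its log2 difference was 2.17 ± 0.40 (adjusted p = 0.000473 by limma), and the groups were separate. For ckr-2 (chromosome III, 2009299 to 2021595), a cholecystokinin-type receptor of the peptide NLP-12 that acts in cholinergic motor neurons, the VA libraries held 22.6, 14.9 and 10.9 TPM and the whole-worm libraries 4.13, 3.78 and 5.44 TPM. It had the next to smallest fold of all 47 genes, with a log2 difference of 1.61 ± 0.36 (adjusted p = 0.00177 by limma). The gene npr-3 (chromosome IV, 11459984 to 11463199), a receptor for flp-15 peptides, read 32.6, 11.9 and 29.7 TPM against 5.44, 5.32 and 6.86 TPM, a log2 difference of 1.79 ± 0.40 (adjusted p = 0.00169 by limma). The smallest fold was that of npr-12 (WBGene00020689, chromosome IV, 6928928 to 6937648), at 13.7, 7.31 and 11.1 TPM in VA neurons and 3.90, 3.88 and 4.10 TPM in whole worms. Its groups were still apart, with a log2 difference of 1.20 ± 0.35 (adjusted p = 0.0075 by limma).

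In 4 genes the groups overlapped, each time through VA replicate 2. The tachykinin receptor-like gene tkr-1 (chromosome III, 9383796 to 9387704) read 16.04, 2.69 and 9.34 TPM in VA neurons and 2.88, 2.34 and 0.966 TPM in whole worms. For npr-7 (chromosome X, 9315436 to 9319180) the values were 14.5, 1.82 and 10.3 TPM against 1.76, 1.88 and 2.60 TPM. In frpr-16 (chromosome II, 6029491 to 6031206) they were 22.4, 5.09 and 29.9 TPM against 6.32, 2.37 and 3.18 TPM. VA replicate 2 thus fell among the whole-worm values in all of these, and the other VA libraries stood above them. The log2 differences were 1.56 ± 0.54, 1.37 ± 0.56 and 1.81 ± 0.56 (adjusted p = 0.0165, 0.0343 and 0.0104 by limma), and 2.17, 2.12 and 2.52 without VA replicate 2. Each lost its call without VA replicate 1, where the log2 differences were 1.07, 0.89 and 1.55 (adjusted p = 0.092, 0.177 and 0.0656 by limma). Over all alternatives the adjusted p ran from 0.000803 to 0.263 for tkr-1, from 0.000319 to 0.177 for npr-7 and from 0.000288 to 0.0656 for frpr-16. The call of tkr-1 was also lost without whole-worm replicate 4 (1.27), and that of npr-7 without VA replicate 3 (1.11) or whole-worm replicate 2 (1.30) or 3 (1.33). In npr-34 (chromosome II, 14734405 to 14739243) VA replicate 2 was below every whole-worm library, at 10.7, 1.07 and 9.81 TPM against 1.84, 1.63 and 2.12 TPM. Its log2 difference of 1.17 ± 0.59 did not pass (adjusted p = 0.0749 by limma), and it was 1.98 and passed without VA replicate 2 (adjusted p = 0.000352 by limma, with a range of 0.000352 to 0.305 over all alternatives).

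The remaining 23 genes had means from 3.10 to 47.6 TPM in VA neurons and from 0.239 to 6.23 TPM in whole worms, and the groups were separate in each. Their log2 differences ran from 1.52 to 3.18. Highest among them was frpr-13 (chromosome V, 8899056 to 8902407), at 71.6, 43.8 and 27.3 TPM in VA neurons and 3.76, 4.53 and 3.68 TPM in whole worms. It lies beside frpr-12 (8902997 to 8905510) and frpr-11 (8907196 to 8909444) on the same strand, a run of 3 receptor genes with gaps of 589 and 1685 bases. The downstream neighbours were lower. The gene frpr-11 read 18.6, 12.8 and 8.45 TPM against 2.76, 3.56 and 1.78 TPM, and frpr-12 read 9.96, 9.15 and 1.38 TPM against 1.38, 0.718 and 1.34 TPM. In all 3 of these neighbours VA replicate 3 was the lowest VA library, and in frpr-12 it was level with whole-worm replicate 2. Whether reads are shared between these related genes was not tested. The call of frpr-12 (log2 difference 1.596 ± 0.55, adjusted p = 0.017 by limma) was lost without VA replicate 1 or 2 or whole-worm replicate 3, and the difference was 1.21, 1.27 and 1.44 then and 2.31 without VA replicate 3. Other calls among the 23 that were lost without a library were those of npr-21 and of ntr-2, a relative of vasopressin and oxytocin receptors, whose log2 differences of 1.79 and 1.52 were 1.63 and 1.17 without VA replicate 1; ntr-2 was also lost without whole-worm replicate 4 (1.40). Without VA replicate 2 the log2 difference was 3.53 in dmsr-3, 2.62 in dmsr-4, 2.95 in npr-10, 3.02 in npr-2, 2.49 in npr-21, 2.57 in npr-25, 2.13 in ntr-2 and 3.23 in sprr-1, against 2.74, 2.02, 2.31, 2.37, 1.79, 1.97, 1.52 and 2.64 with all libraries. In frpr-10 it went from 2.18 to 1.55 without VA replicate 1. Over the 47 genes, 40 kept their call with any single library left out. The same count over all listed genes is not given here, so this is not read as particular to receptors.

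**Figure D2:**
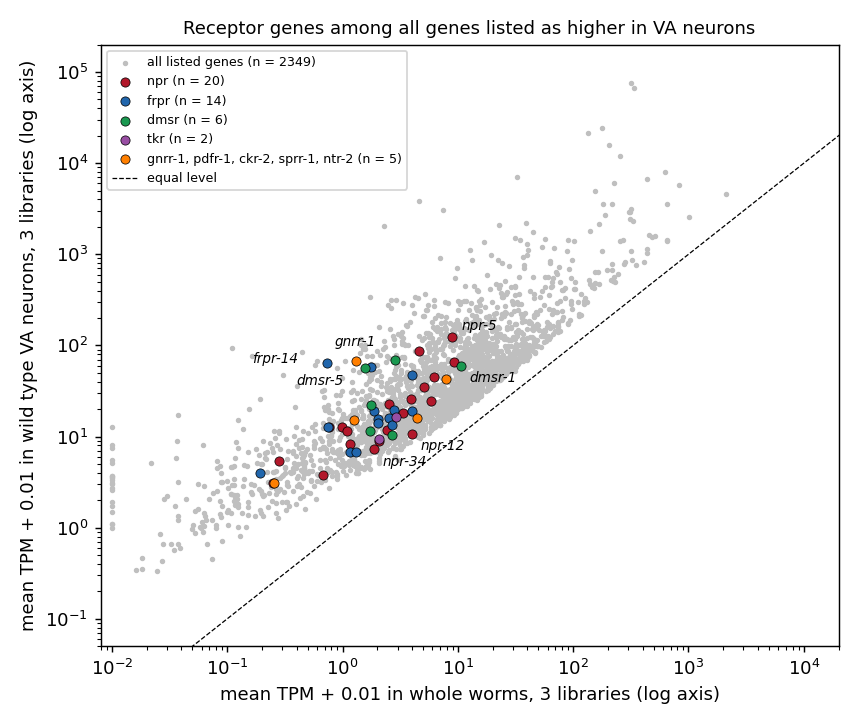
Mean TPM (plus 0.01) of all 2349 listed genes (grey) and of the 47 receptor genes (coloured by family) in whole worms and in wild type VA neurons, both on log axes, with the dashed line marking equal levels. Receptor genes lie in the lower and middle part of the cloud, from 3.10 to 124 TPM in VA neurons, with frpr-14 and gnrr-1 farthest above the line.

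The wild type VA libraries differed among themselves in most receptor genes. The ratio of the highest to the lowest VA library had a median of 3.34 over the 47 genes and of 2.11 over all listed genes. It was under 2 in frpr-7, gnrr-1, npr-5 and npr-12, and over 5 in 14 genes, up to 14.8 in frpr-2. VA replicate 2 was the lowest VA library in 34 of 47 receptor genes (72.3%) and in 41.6% of all listed genes. With the listed heat shock genes left out of the total, the figures were 32 of 47 (68.1%) and 21.5%. The other 13 genes were lowest in VA replicate 3: npr-14, frpr-13, npr-8, frpr-7, frpr-5, npr-15, frpr-12, dmsr-1, npr-1, pdfr-1, frpr-6, frpr-11 and ckr-2.

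The lists of related genes were split between the same libraries. Of all listed genes, 41.6% were lowest in VA replicate 2 and 53.0% in VA replicate 3. Of the 10 listed peptide processing genes, 7 were lowest in VA replicate 2, among them the proprotein convertase gene egl-3 at 1845, 737 and 1635 TPM and its chaperone gene sbt-1 at 8912, 3976 and 10846 TPM. The AVK markers flp-1 (62369, 21477 and 118785 TPM) and nlp-49 (32831, 9946 and 29537 TPM) were lowest there too. Of the 8 motor neuron markers, 5 were lowest in VA replicate 2, namely unc-4 (1311, 936 and 1129 TPM), unc-17, cha-1, cho-1 and bnc-1. The other 3 were lowest in VA replicate 3, namely unc-3 (946, 693 and 471 TPM), acr-2 (666, 349 and 327 TPM) and del-1 (323, 237 and 183 TPM). So was snf-11, looked for as an AVF marker (184, 104 and 93.0 TPM). The listed touch neuron markers mec-7 and mec-12 were lowest in VA replicate 2. Of 16 listed G protein subunits and regulators, 1, 5 and 10 were lowest in VA replicates 1, 2 and 3. The part of these other genes or cells in the spread of the receptors was not tested.

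**Figure D3:**
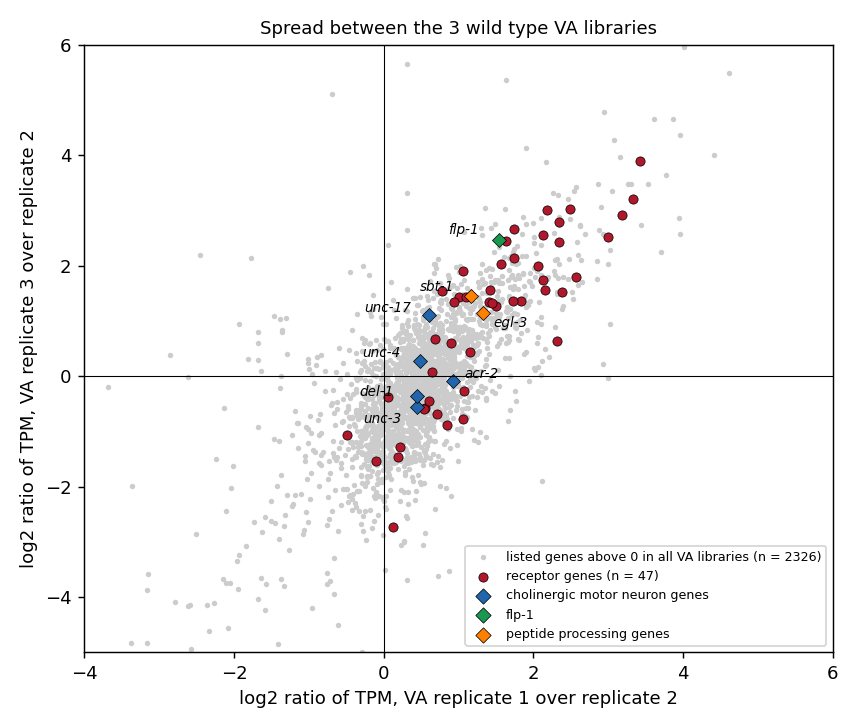
Spread between the wild type VA libraries, as the log2 ratio of TPM in VA replicate 1 over replicate 2 against that of replicate 3 over replicate 2, for the 2326 listed genes above 0 in every VA library (grey; 21 lie outside the axes), the 47 receptor genes (red) and selected marker and peptide processing genes (diamonds). The 34 receptor genes that are lowest in replicate 2 lie above 0 on both axes by definition, as do flp-1, egl-3, sbt-1, unc-4 and unc-17. The 13 that are lowest in replicate 3 lie below 0 on the vertical axis, as do unc-3, acr-2 and del-1.

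Partners of the receptors were read from lists of related genes. Of 36 G protein subunits and regulators, 16 were listed as higher in VA neurons, beside 11.6% of all protein-coding genes, and all 16 passed limma's test, which is near the 95.1% of all listed genes tested. They included the Gαo gene goa-1 at 972, 625 and 585 TPM in VA replicates 1 to 3 (whole-worm mean 74.6 ± 9.45 TPM, SD, n = 3), the Gαs gene gsa-1 at 781, 625 and 676 TPM (91.7 ± 34.7 TPM, SD, n = 3) and the Gαq gene egl-30 at 2435, 1107 and 1263 TPM (517 ± 108 TPM, SD, n = 3). These subunits carry the inhibitory, cAMP-raising and phospholipase branches of receptor signalling, and each was more abundant than any receptor gene. Of the genes that end receptor signals, the kinase gene grk-1 read 354, 247 and 80.9 TPM and the arrestin gene arr-1 54.5, 35.2 and 35.3 TPM. Of 12 peptide processing and release genes 10 were listed, and of 3 further peptide receptor genes outside the rule seb-3, a receptor for peptides of nlp-49, was listed at 233, 163 and 146 TPM against 7.48, 5.56 and 4.91 TPM.

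Of 26 precursor genes of known ligands 5 were higher in wild type VA neurons, namely flp-1, nlp-49, pdf-1, pdf-2 and flp-34, and 4 of the 5 passed limma's test. For 3 of the receptors a ligand gene named for them here stood in the same table. The gene dmsr-7, whose product responds to several peptides, was not matched to ligand genes. The PDF receptor gene pdfr-1 was listed beside pdf-2 and pdf-1. The latter read 1437, 319.8 and 4713 TPM in VA neurons against 135, 193 and 170.0 TPM in whole worms. For pdf-2 the values were 110, 19.1 and 50.5 TPM against 21.8, 26.2 and 24.9 TPM, with VA replicate 2 below every whole-worm library. The receptor gene frpr-7 was listed beside flp-1, and npr-11 beside flp-34, at 80.2, 15.3 and 35.8 TPM against 11.9, 13.8 and 17.7 TPM. In flp-34 the groups overlapped through VA replicate 2. All 5 listed ligand genes were lowest in VA replicate 2, beside 41.6% of all listed genes. The receptor gene npr-11 was lowest there too, while pdfr-1 and frpr-7 were lowest in replicate 3. Several receptors of well known peptides were not in either table, among them egl-6, npr-6, npr-22, frpr-4, frpr-18, ntr-1, nmur-1 and trhr-1, and their levels are not analysed here.

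The second comparison asks which receptor transcripts rise when VA neurons lack UNC-4 function. The authors listed npr-12, ckr-1, frpr-17, npr-4, npr-28 and frpr-15, which make up 6 of 97 annotated receptor genes (6.19%), beside 1.07% of all annotated protein-coding genes. Levels in the mutant were moderate, with means from 19.8 to 56.8 TPM, against 1.66 to 10.7 TPM in wild type VA neurons. In the authors' deposited table their folds lay between 4.64 and 9.95, and the median was 8.08 beside 13.3 for all 214 genes. All 6 genes had every mutant library above every wild type library, where 70.1% of the listed genes did, and all 6 passed limma's test, where 80.8% did. The selection on the same libraries applies here as well. The median log2 difference was 2.82 for the 6 genes and 2.90 for all 214.

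The gene ckr-1 (WBGene00020712, chromosome I, 6687349 to 6691671) encodes the second cholecystokinin-type receptor of the peptide NLP-12. The mutant libraries 1 to 3 held 34.4, 73.4 and 36.7 TPM, and the wild type libraries 1 to 3 held 9.34, 2.47 and 4.37 TPM. It was the only 1 of the 6 genes that was highest in unc-4 replicate 2, and its log2 difference was 3.004 ± 0.88 (SE, adjusted p = 0.0243 by limma). The receptor gene npr-4 (WBGene00007635, chromosome X, 12536978 to 12551684), which like npr-5 responds to flp-18 peptides, read 54.01, 8.96 and 57.5 TPM in the mutant and 6.70, 2.11 and 6.46 TPM in wild type. Unc-4 replicate 2 was just above the wild type libraries, and the log2 difference of 2.49 ± 0.99 (adjusted p = 0.0379 by limma) was 3.33 without it.

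The genes npr-28, frpr-17 and frpr-15 follow. The gene npr-28 (chromosome X, 8348534 to 8351084) held 34.3, 16.8 and 27.2 TPM in the mutant and 4.203, 1.14 and 2.38 TPM in wild type. In frpr-17 (chromosome X, 14406117 to 14411258) the values were 50.2, 19.9 and 64.9 TPM against 8.68, 3.21 and 2.94 TPM. For frpr-15 (chromosome V, 12680107 to 12692539) they were 34.9, 5.11 and 19.4 TPM against 2.57, 0.516 and 1.90 TPM. Unc-4 replicate 2 was the lowest mutant library in each, yet above all wild type libraries. It was the lowest in 5 of the 6 receptor genes and in 178 of all 214 listed genes (83.2%), so this order was that of the whole table. The log2 differences were 2.96 ± 0.87, 2.93 ± 0.90 and 2.72 ± 0.98 (adjusted p = 0.0243, 0.0257 and 0.03 by limma), and that of frpr-15 was 3.43 without unc-4 replicate 2. Exons of frpr-15 and frpr-17 overlap parn-1 and fbxa-179 on the other strand, which makes both values uncertain.

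As the 1 receptor in both tables, npr-12 had its levels at hand in all 3 groups. It read 51.4, 42.9 and 76.2 TPM in unc-4 VA neurons, 13.7, 7.31 and 11.1 TPM in wild type VA neurons and 3.90, 3.88 and 4.10 TPM in whole worms. The 3 groups did not overlap, and the mutant libraries were the highest. The mutant was above wild type by 2.30 ± 0.83 on the log2 scale (adjusted p = 0.0305 by limma). The wild type libraries are common to both comparisons.

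These calls depended on which libraries were kept. The share of all listed genes that passes in the same fits is not given here. The losses are therefore not read as particular to receptors. All 6 genes kept their call without unc-4 replicate 2, and ckr-1 alone kept it without unc-4 replicate 1. Without unc-4 replicate 3, or without any of the 3 wild type libraries, limma's test passed 0 of the 6 at an adjusted p under 0.05, and 4, 5, 3 and 3 at an unadjusted p under 0.05 without unc-4 replicate 3 and wild type replicates 1, 2 and 3. The largest adjusted p with libraries left out was 0.101 for ckr-1, frpr-17 and npr-28, 0.121 for npr-12 and frpr-15 and 0.145 for npr-4. The smallest log2 differences were then 2.64, 2.59, 2.64, 2.08, 2.16 and 2.05 in the same order of genes.

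**Figure D4:**
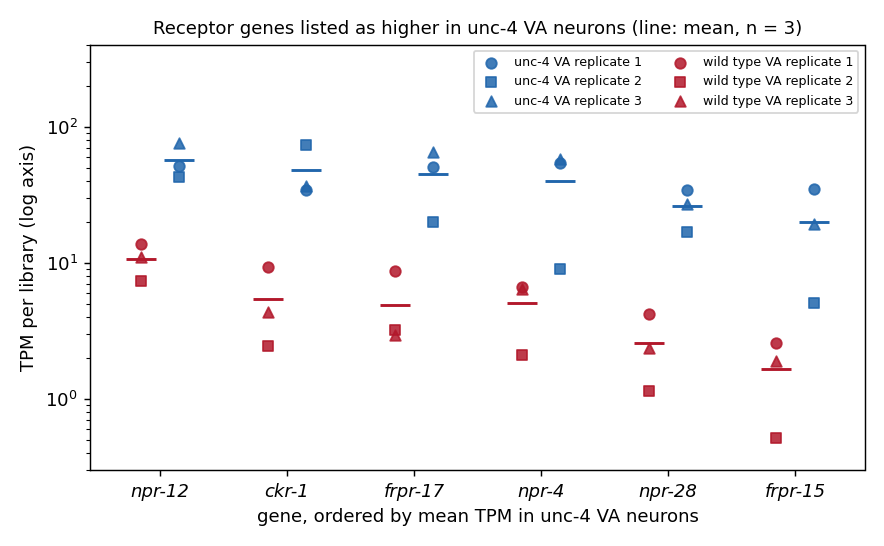
TPM on a log axis of the 6 receptor genes of the unc-4 table, in each unc-4 (blue) and wild type (red) VA library, with lines at the group means (n = 3). Blue and red symbols are apart for every gene; unc-4 replicate 2 (blue square) is the lowest mutant library for all but ckr-1.

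Ligand genes of some of these receptors were listed in the same table. Of 26 precursor genes of known ligands 8 were listed as higher in the mutant, beside 1.07% of all annotated protein-coding genes. All 8 passed limma's test, and all 8 were lowest in unc-4 replicate 2. The last 2 counts are read against the listed genes as a whole, of which 80.8% passed and 83.2% were lowest in that library. The NLP-12 precursor gene, nlp-12, stood at 2017, 118 and 3621 TPM in unc-4 replicates 1 to 3 and at 33.1, 26.2 and 35.4 TPM in wild type, beside its receptor gene ckr-1, which was highest where nlp-12 was lowest. The gene flp-18 stood at 781, 348 and 686 TPM against 53.7, 30.6 and 60.1 TPM, beside npr-4. Of the G protein list, gpa-2 and rgs-3 were listed, and no peptide processing gene was.

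Some genes looked for as markers of other cells were listed as higher in the mutant. Both coelomocyte markers, cup-4 and unc-122, were listed, with a summed level of 1831, 173 and 686 TPM in the mutant libraries 1 to 3, against 38.6, 55.6 and 141.6 TPM in the wild type libraries. Of 3 GABA motor neuron markers, unc-30 was listed at 80.7, 51.6 and 134 TPM against 11.01, 6.04 and 13.2 TPM. Of 3 VB or DB motor neuron markers, the VB gene ceh-12 was listed at 40.2, 139 and 85.5 TPM against 0.620, 0.498 and 1.11 TPM. Of all 214 listed genes 13 were highest in unc-4 replicate 2, ceh-12 and ckr-1 among them. A link between these genes was not tested. Whether these marker transcripts or the receptor transcripts came from VA neurons or from other cells was not tested. The 46 other receptor genes enriched in wild type VA neurons were not listed as higher in the mutant, and their mutant levels are not analysed here.

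Receptor genes in the whole-worm table lay on all 6 chromosomes, with 15 of 47 on X, 11 on V, 6 each on II, III and IV and 3 on I. Chromosome X holds 30 of the 97 annotated receptor genes and 481 of the 2313 listed protein-coding genes. Coordinates are those of WBcel235. Besides those named above, exons of tkr-1 and sprr-1 overlap another gene on the other strand. An exon of frpr-10 overlaps csr-1 on the same strand, which makes its value uncertain. None of the overlapping partners was itself listed.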

How the data were processed

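RNA of sorted VA neurons and of whole L2 worms was measured by RNA sequencing, 3 libraries a group. Per the labels' protocols, a Clontech kit for very small RNA inputs gave the cDNA, and libraries were run on an Illumina HiSeq. The authors deposited 2 tables with a TPM value per library, group mean TPM, a fold change (read here as a linear ratio) and an FDR p-value, per the file headers. The submitters' processing notes name the genome build WBcel235; aligner, counting, use of strand and test are not given in the sources used here. The tables hold only genes with a raised fold at an FDR p-value under 0.05, and 2 rows of the unc-4 table without a gene were left out.

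Columns were tied to samples by library code. Receptor genes were matched by table symbol; names and coordinates came from gene tables and the Ensembl release 115 annotation of WBcel235. Means and SD are over libraries. Each table was fitted alone by limma (version 3.58.1, R 4.3.3) with trended variance. Input was log2(TPM + 1) for the 2328 and 214 listed genes whose mean reached 1 TPM in some group, all receptors among them, and p-values received Benjamini-Hochberg adjustment. Because of the added 1, log2 differences of low genes come out too small. The fit was tested on simulated data.

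The receptor genes and related lists were chosen with earlier results of these data known. Given with all values were the 12 largest folds, the 8 highest means, genes whose groups overlap, the smallest fold and receptors of well known ligands, and every receptor of the unc-4 table; frpr-11, frpr-12 and frpr-13 were added after their values were seen. Alternatives were other pseudocounts, no filter, no trend, a replicate block, each library left out, and totals without the listed heat shock genes. The planned look at proteins and promoters was not made.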

Additional observations from a re-analysis of the deposited data

How the results depend on the processing

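With another pseudocount, no filter, no trend or heat shock genes left out, limma's test passed the same number of receptor genes in each comparison where the setting could be run (46 and 6). The heat shock setting was not run for the unc-4 table, which lists none of those genes. With a pseudocount of 5 the median log2 difference fell to 1.41 (whole worms) and 1.99 (unc-4); it understates low genes by construction. With each library left out, 40 to 46 receptor genes passed against whole worms and 0 to 6 in the unc-4 comparison. At the authors' FDR under 0.01, 46 and 3 receptor genes stayed listed. Replicate numbers are shared between groups, but deviations of same-numbered libraries correlated by 0.07 and -0.01 (wild type VA and whole worms) and by 0.02, 0.18 and 0.06 (unc-4 and wild type VA), so the numbers were not taken as pairs. With the replicate block 35 and 6 receptor genes passed. Counts over all listed genes under these alternatives are not given here, so the receptor counts stand without a background. Against whole worms VA replicate 1 and whole-worm replicate 4 have no same-numbered partner, so the blocked difference rests on replicates 2 and 3 of both groups. There the calls of frpr-1, frpr-6, frpr-10, frpr-12, npr-1, npr-7, npr-12, npr-33, ntr-2, tkr-1 and tkr-3 were lost (adjusted p from 0.0522 to 0.263 by limma). Losses in so small a fit do not tell whether the libraries are paired. No log2 difference changed sign under any alternative. Leaving out heat shock genes raised the mean summed receptor level in VA neurons from 1263 ± 458 to 1422 ± 302 TPM (SD, n = 3). Depth is unknown, so what it limits was not measured.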

Other observations

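The whole-worm table holds 4 more genes that now carry receptor names but appear there under sequence names, chosen here by their current symbols. F57A8.4, now npr-39, read 25.8, 8.96 and 19.4 TPM in VA replicates 1 to 3 and 2.77, 1.52 and 2.76 TPM in whole-worm replicates 2 to 4. Y70D2A.1, now npr-40, held 26.1, 7.69 and 14.2 TPM against 1.07, 0.951 and 4.09 TPM. M04G7.3, now npr-37, stood at 16.3, 6.09 and 10.9 TPM against 4.99, 3.05 and 3.19 TPM. For F56A12.2, now npr-43, the values were 10.49, 4.55 and 5.88 TPM against 1.36, 0.459 and 0.985 TPM. All 4 genes were lowest in VA replicate 2 and still above every whole-worm library, with log2 differences of 2.42, 2.48, 1.28 and 2.001 (adjusted p = 0.000308, 0.000862, 0.0108 and 0.000938 by limma).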
